A study of Mus musculus with 12 samples.

Results

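Antiviral interferon-stimulated genes are described here across 12 arrays of mouse helper T cells. The set was a list of 40 genes, without the guanylate-binding proteins, immunity-related GTPases, interferon regulatory factors, STATs and antigen-processing genes. The rule set no bound on differences between groups, but the list was chosen with earlier results of these data known. A gene entered when the RefSeq accession of a non-control probe mapped to it, with the brightest probe standing for the gene. This gave 36 of the 40, among 14719 genes tested. All 36 passed the filter on dim probes, and 32 of them were well above background on all 12 arrays. Mx1, Mx2, Dtx3l and Herc6 had no probe matched in this way and were not analysed here.

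The study compared helper T cells of 7-week-old C57BL/6 mice that were DGCR8-deficient, called Dgcr8 KO here, or wild-type. A miR-29b mimic or a control miRNA went into the Dgcr8 KO cells, and inhibitors of miR-29 or control inhibitors went into wild-type ones, with 3 mice per genotype and both treatments given to cells of each mouse. All cells had been stimulated through CD3 and CD28 for 65 hours, then kept in IL-2 for 48 hours, electroporated on days 1 and 4, and lysed for RNA on day 5, which was 24 hours past the later transfection. What drove the deletion, and in which cells, is not given in the sources used here. DGCR8 is the RNA-binding partner of Drosha in the complex that cuts primary microRNA transcripts, so cells without it lack most mature microRNAs. The mice are numbered 2, 3 and 4 within each genotype, and values are listed in that order.

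Type I interferons bind the receptor made of IFNAR1 and IFNAR2, whose kinases JAK1 and TYK2 phosphorylate transcription factors of the STAT family, STAT2 among them. With IRF9 these bind interferon-stimulated response elements in the promoters of many interferon-stimulated genes. Products of the genes described here detect viral nucleic acid, degrade or edit RNA, block translation, or hold back virus release. Interferon gamma, which has its own receptor, acts on a partly shared set of genes, and helper T cells of the Th1 type are a main source of it. The miR-29 microRNAs lower target messages that pair with their seed, bases 2 to 8, and were transfected or inhibited here, so their RefSeq sequences are shown with the seed in capitals. The 3 members had the same seed.
miR-29a-3p: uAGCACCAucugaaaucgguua
miR-29b-3p: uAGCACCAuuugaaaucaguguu
miR-29c-3p: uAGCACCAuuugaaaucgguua

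The response element bears on the set directly, so the promoters were read in RefSeq's GRCm38.p6 table, from 250 bases before to 50 bases after each start. Of the 36 members and the 4 unmatched genes, 28 had an entry. The core of the element, GAAA followed by any 2 bases and GAAA again, was searched on both strands with overlapping matches kept. It lay in 12 of these 28 genes (42.9%), against 1079 of 27025 genes in the table (3.99%). The gamma-activated site, TTCNNNGAA with N for any base, was searched as well. It lay in 8 of the 28 genes (28.6%), against 2582 of 27025 (9.55%). Windows of 60 bases that end before the start are shown for 6 genes, with letters matched to the response element core in capitals. The genes were chosen to set promoters that hold the same letters beside differences of unlike size, which are given further on.
Rsad2: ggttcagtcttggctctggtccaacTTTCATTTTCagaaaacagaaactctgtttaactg
Oas1a: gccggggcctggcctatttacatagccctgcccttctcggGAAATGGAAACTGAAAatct
Isg15: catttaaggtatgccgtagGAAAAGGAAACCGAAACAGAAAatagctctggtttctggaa
Ifit3: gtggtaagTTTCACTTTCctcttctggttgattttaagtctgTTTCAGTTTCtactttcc
Oas3: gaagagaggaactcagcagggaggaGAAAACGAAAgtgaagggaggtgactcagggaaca
Ifit1: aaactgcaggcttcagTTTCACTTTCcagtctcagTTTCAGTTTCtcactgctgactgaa

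These windows are Rsad2 at chr12:26456538-26456597 on the minus strand, Oas1a at chr5:120907526-120907585 on the minus strand, Isg15 at chr4:156200856-156200915 on the minus strand, Ifit3 at chr19:34583365-34583424 on the plus strand, Oas3 at chr5:120777700-120777759 on the minus strand and Ifit1 at chr19:34640769-34640828 on the plus strand, each read along its gene. Isg15 held 3 overlapping matches, Oas1a held 2 overlapping matches, Ifit1 and Ifit3 held 2 apart on the other strand, Rsad2 held 1 on the other strand and Oas3 held 1. A match describes the letters and does not show that a factor was bound.

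A level is the log2 processed signal of a probe minus the 75th percentile of that array, so levels are read across arrays for one gene and not between genes. A difference is between group means of levels, given with its standard error from limma, with 3 arrays per group. Adjusted p-values are over all 14719 genes, with a threshold of 0.05. Per array, 27301 to 31416 of 41174 probes had a signal well above background, and no spot (0) was marked as saturated. The miR-29b array of Dgcr8 KO mouse 3 had 1458 non-control spots marked as outliers, against 68 to 193 on the others, and both arrays of that mouse had Y-linked transcripts near background (Ddx3y at -8.76 and -8.37). Dgcr8 itself had levels of -1.24 to -0.15 on Dgcr8 KO arrays and -0.16 to 1.004 on wild-type arrays, and its difference between controls was -1.06 ± 0.38 (adjusted p = 0.0721). Whether its probe lies in the deleted sequence is not known. Helper T cell markers were well above background on all arrays for 9 of 9 matched genes.

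The antiviral genes stood higher in Dgcr8 KO control cells than in wild-type control cells. Of the 36 members, 22 were higher, 0 were lower and 14 did not pass, where 9.26% of all genes were higher and 12.7% lower. Oasl2 and Ifi44 passed the filter on dim probes only through their Dgcr8 KO arrays and so had to differ, and of the other 34 members 20 were higher. The median member difference was 1.26 on the log2 scale, from -0.62 to 6.95, against a median of -0.08 over all genes tested. The members' median level was 1.25, 1.29 and 1.28 on the Dgcr8 KO control arrays and -0.05, 0.01 and 0.07 on the wild-type control arrays. Group ranges did not overlap for 26 members higher in Dgcr8 KO, Oasl2 and Ifi44 among them, and for 2 lower. Of genes in general, 15.2% and 22.1% did so. The 2 controls differed in the kind of oligonucleotide as well as in genotype, and these cannot be told apart. In bulk RNA, a change in the makeup of the cells and a change in RNA per cell cannot be told apart either.

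**Figure D1:**
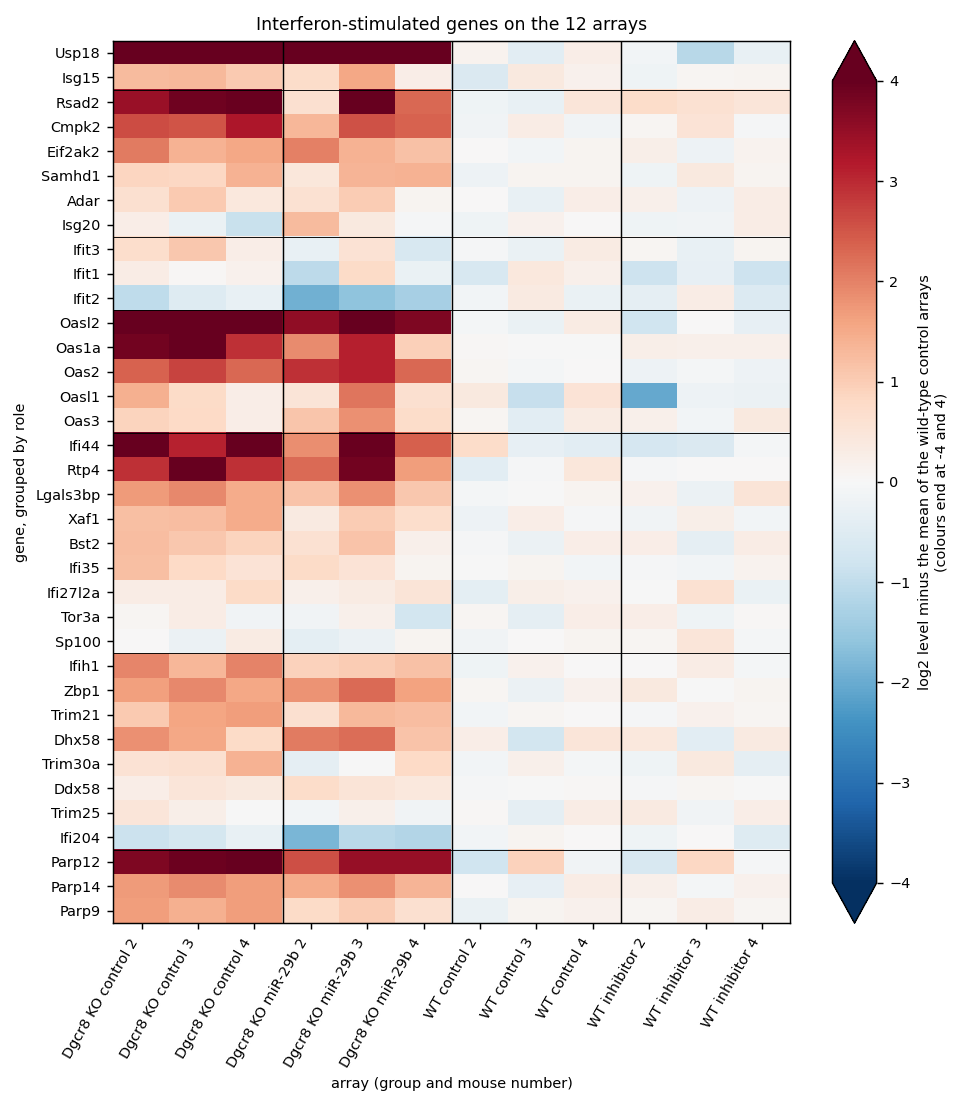
Heat map of the 36 genes (rows, grouped by role) on the 12 arrays (columns, by group and mouse number). Colour gives the log2 level minus the gene's mean over the 3 wild-type control arrays, ending at -4 and 4. Most rows are red on the Dgcr8 KO arrays and pale on the wild-type inhibitor arrays, and the miR-29b arrays of mice 2 and 4 are paler than that of mouse 3 in rows such as Rsad2, Ifi44 and Isg15.

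Usp18, the protease that removes ISG15 from proteins and damps signalling at IFNAR2, showed the largest difference of the set. Usp18 had levels of 2.63, 2.35 and 1.67 on the Dgcr8 KO control arrays, 2.41, 2.72 and 1.61 with miR-29b, -4.58, -5.15 and -4.45 on the wild-type control arrays and -4.83, -5.85 and -5.02 with the inhibitors. All 6 Dgcr8 KO arrays lay far above all 6 wild-type arrays, with no overlap. The difference between controls was 6.95 ± 0.38 (adjusted p = 3.3e-06), which is 123-fold. With normexp, a background correction tried as an alternative, it was 5.43, and with the authors' own values 5.93. Isg15 encodes the ubiquitin-like modifier itself. The Isg15 probe read -1.30, -1.26 and -1.53 in the Dgcr8 KO controls and -1.83, -1.03 and -2.32 with miR-29b, against -3.13, -2.18 and -2.40 in the wild-type controls and -2.74, -2.48 and -2.45 with the inhibitors. The controls did not overlap, while the miR-29b array of mouse 4 fell within the wild-type range. Its difference between controls was 1.21 ± 0.33 (adjusted p = 0.0235), and it did not pass in the fit blocked by mouse (adjusted p = 0.0613), nor without control array 2 or 3 of Dgcr8 KO or control array 2 of the wild type (adjusted p up to 0.0909).

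The oligoadenylate synthetases make the 2-5A that activates RNase L, and 3 of 5 in this family, counting the related Oasl genes, were higher in Dgcr8 KO controls. For Oas1a the levels were -2.39, -2.04 and -3.32 (Dgcr8 KO control), -4.38, -3.15 and -5.30 (miR-29b), -6.23, -6.28 and -6.26 (wild-type control) and -6.01, -6.05 and -6.04 (inhibitors). Both Dgcr8 KO groups lay above every wild-type array, and the wild-type arrays were close together. The difference between controls was 3.67 ± 0.47 (adjusted p = 0.000398), and 1.41 after normexp background correction (adjusted p = 0.0285) and 2.08 with the authors' values. Levels of Oas2 stood at -3.60, -3.24 and -3.67 in Dgcr8 KO control cells, -3.02, -2.85 and -3.65 in miR-29b cells, -5.87, -6.05 and -5.94 in wild-type control cells and -6.16, -6.03 and -6.17 in inhibitor cells. No Dgcr8 KO array came near the wild-type levels, and the difference of 2.45 ± 0.22 (adjusted p = 4.4e-05) was 1.28 with the authors' values and 0.67 with normexp, which did not pass (adjusted p = 0.183). Oasl2 encodes a synthetase-like protein. Oasl2 had levels of -1.55, 0.10 and -1.47 on the Dgcr8 KO control arrays, -3.13, -0.71 and -2.94 with miR-29b, -6.76, -6.95 and -6.34 on the wild-type control arrays and -7.48, -6.67 and -7.00 with the inhibitors. It was well above background on all 6 Dgcr8 KO arrays and on 1 wild-type array, an inhibitor array. No wild-type control array measured it, so the size of its difference is not settled. The processed signals differed by 5.71 on the log2 scale (adjusted p = 0.000173), against 3.43 with the authors' values and 2.59 with normexp. Oas3 differed by 0.65 ± 0.31 (adjusted p = 0.178) and Oasl1 by 0.82 ± 0.62 (adjusted p = 0.427), and neither passed. The Oasl1 difference turned to -0.20 with normexp and was 0.16 with the authors' values.

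Enzymes that act on RNA or nucleotides were higher in 4 of 6 cases. Rsad2 encodes viperin, which makes a chain-terminating nucleotide. The Rsad2 probe read -2.44, -2.03 and -1.97 in the Dgcr8 KO controls and -5.26, -1.67 and -3.61 with miR-29b, against -6.09, -6.20 and -5.43 in the wild-type controls and -5.17, -5.31 and -5.43 with the inhibitors. The Dgcr8 KO controls stood apart from all wild-type arrays, while the miR-29b arrays spread from the level of the controls down into the wild-type range. The difference between controls was 3.76 ± 0.68 (adjusted p = 0.00295) on this probe, 2.52 and 2.02 on 2 dimmer probes of the gene, 1.75 with normexp and 2.31 with the authors' values. Cmpk2, a mitochondrial nucleotide kinase, lies next to Rsad2 on chromosome 12. For Cmpk2 the levels were 1.45, 1.38 and 2.08 (Dgcr8 KO control), 0.18, 1.39 and 1.21 (miR-29b), -1.30, -0.85 and -1.29 (wild-type control) and -1.06, -0.60 and -1.20 (inhibitors). Every Dgcr8 KO array was above every wild-type array, and the difference was 2.79 ± 0.33 (adjusted p = 0.000263). Eif2ak2 encodes PKR, the kinase that halts translation on meeting double-stranded RNA. Levels of Eif2ak2 stood at 1.85, 1.15 and 1.33 in Dgcr8 KO control cells, 1.79, 1.15 and 0.93 in miR-29b cells, -0.21, -0.35 and -0.12 in wild-type control cells and -0.01, -0.44 and -0.08 in inhibitor cells. It too separated the genotypes on all arrays, by 1.67 ± 0.26 (adjusted p = 0.00117) between controls. Samhd1, which depletes deoxynucleotides, was bright in both genotypes. Samhd1 had levels of 4.68, 4.68 and 5.24 on the Dgcr8 KO control arrays, 4.29, 5.19 and 5.22 with miR-29b, 3.62, 3.94 and 3.95 on the wild-type control arrays and 3.67, 4.23 and 3.95 with the inhibitors. The Dgcr8 KO arrays stayed above the wild-type arrays by a smaller step, 1.03 ± 0.28 (adjusted p = 0.024), which was lost without control array 4 of Dgcr8 KO or control array 2 or 4 of the wild type (adjusted p up to 0.0879). Adar, the RNA-editing enzyme, differed by 0.71 ± 0.27 (adjusted p = 0.0933) and did not pass.

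Isg20, a 3′ to 5′ RNA exonuclease, did not separate the genotypes. The Isg20 probe read 2.89, 2.34 and 1.74 in the Dgcr8 KO controls and 3.88, 2.99 and 2.58 with miR-29b, against 2.43, 2.78 and 2.63 in the wild-type controls and 2.43, 2.48 and 2.92 with the inhibitors. The ranges of all 4 groups overlapped, and the control difference was -0.29 ± 0.36 (adjusted p = 0.654).

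The sensors of foreign RNA and DNA, with their regulators, gave 4 higher of 8. Ifih1 encodes MDA5, a helicase that detects long double-stranded RNA. For Ifih1 the levels were 0.48, -0.14 and 0.51 (Dgcr8 KO control), -0.55, -0.46 and -0.28 (miR-29b), -1.64, -1.30 and -1.46 (wild-type control) and -1.46, -1.18 and -1.54 (inhibitors). The 4 groups fell into a high pair and a low pair with no overlap between genotypes, and the controls differed by 1.75 ± 0.21 (adjusted p = 0.000252). Dhx58 encodes LGP2, the third helicase of the family. Levels of Dhx58 stood at 0.21, -0.10 and -0.85 in Dgcr8 KO control cells, 0.45, 0.59 and -0.49 in miR-29b cells, -1.38, -2.37 and -1.15 in wild-type control cells and -1.20, -2.06 and -1.26 in inhibitor cells. All Dgcr8 KO arrays were above all wild-type arrays, yet mice varied widely, and the difference of 1.39 ± 0.43 (adjusted p = 0.0402) kept its call in 8 of 18 alternative settings and was lost without Dgcr8 KO control 2 or 3 or wild-type control 2 or 3 (adjusted p up to 0.135). Zbp1 encodes a sensor of Z-form nucleic acid that can trigger necroptosis. Zbp1 had levels of 4.31, 4.58 and 4.21 on the Dgcr8 KO control arrays, 4.45, 4.95 and 4.27 with miR-29b, 2.75, 2.42 and 2.83 on the wild-type control arrays and 3.05, 2.66 and 2.78 with the inhibitors. The separation was complete, at 1.70 ± 0.22 (adjusted p = 0.000383). Trim21 encodes a cytosolic antibody receptor and ubiquitin ligase. The Trim21 probe read 1.28, 1.80 and 1.89 in the Dgcr8 KO controls and 0.86, 1.53 and 1.46 with miR-29b, against 0.11, 0.32 and 0.25 in the wild-type controls and 0.18, 0.41 and 0.31 with the inhibitors. Its genotypes did not overlap either, with 1.43 ± 0.22 (adjusted p = 0.00127) between controls. Ddx58, which encodes RIG-I, had all Dgcr8 KO arrays (1.01 to 1.46) above all wild-type arrays (0.68 to 0.80) with a small difference of 0.38 ± 0.14 (adjusted p = 0.0843).

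Ifi204, a DNA-binding protein of the HIN family, read below the wild type in Dgcr8 KO controls on its brightest probe. For Ifi204 the levels were 1.87, 2.02 and 2.43 (Dgcr8 KO control), 0.91, 1.65 and 1.55 (miR-29b), 2.61, 2.84 and 2.74 (wild-type control) and 2.55, 2.76 and 2.23 (inhibitors). The Dgcr8 KO controls lay below the wild-type controls without overlap, by -0.62 ± 0.24 (adjusted p = 0.0945), which did not pass. Its 2 other probes gave 0.06 and 0.95, the latter past the threshold in a fit of all probes (adjusted p = 0.0355), so the probes disagreed. Trim25, the ligase that activates RIG-I, and Trim30a differed by 0.24 and 0.87 without passing, while the dimmer probe of each passed in the fit of all probes (1.01 with adjusted p = 0.0116, and 0.97 with adjusted p = 0.00543).

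The 3 IFIT genes, whose products bind viral RNA ends and block translation, had 0 members past the threshold in limma. At an unadjusted p under 0.05 there were also 0, or 2 when blocked by mouse, where 32.8% of all genes were under that level without a block and 31.8% with it. Levels of Ifit2 stood at -1.36, -0.86 and -0.62 in Dgcr8 KO control cells, -2.24, -1.94 and -1.67 in miR-29b cells, -0.43, 0.02 and -0.58 in wild-type control cells and -0.70, -0.02 and -0.88 in inhibitor cells. Its wild-type control arrays were all higher than its Dgcr8 KO control arrays, and the control difference was -0.62 ± 0.29 (adjusted p = 0.169). Ifit3 had levels of -3.03, -2.65 and -3.45 on the Dgcr8 KO control arrays, -4.03, -3.16 and -4.37 with miR-29b, -3.79, -3.99 and -3.40 on the wild-type control arrays and -3.66, -4.02 and -3.62 with the inhibitors. Control ranges overlapped for Ifit3, with a difference of 0.69 ± 0.32 (adjusted p = 0.169). Ifit1 ranged from -5.56 to -3.74 over all arrays and differed by 0.16 ± 0.42 (adjusted p = 0.857). Ifit2 and Ifit3 are neighbours on chromosome 19, and their signs were opposite.

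All 3 ADP-ribosylation genes measured were higher in Dgcr8 KO controls. Parp12 encodes a mono-ADP-ribosyltransferase that restricts viral translation. The Parp12 probe read 0.07, 0.27 and 1.12 in the Dgcr8 KO controls and -1.098, -0.17 and -0.17 with miR-29b, against -4.45, -2.72 and -3.81 in the wild-type controls and -4.30, -2.84 and -3.69 with the inhibitors. No Dgcr8 KO array reached down to a wild-type array, and the difference was 4.15 ± 0.51 (adjusted p = 0.000312), or 17.7-fold. It was 3.08 with normexp and 3.54 with the authors' values. Parp9 and Parp14 lie close together on chromosome 16, on either side of the unmatched Dtx3l, whose product pairs with PARP9. For Parp9 the levels were 2.75, 2.499 and 2.74 (Dgcr8 KO control), 1.82, 2.08 and 1.69 (miR-29b), 0.80, 1.17 and 1.23 (wild-type control) and 1.15, 1.35 and 1.15 (inhibitors). The Parp9 levels formed 3 steps, Dgcr8 KO controls, then miR-29b, then all wild-type arrays, with no overlap between steps, and the controls differed by 1.60 ± 0.18 (adjusted p = 0.000178). Levels of Parp14 stood at 4.50, 4.68 and 4.46 in Dgcr8 KO control cells, 4.26, 4.60 and 4.14 in miR-29b cells, 2.81, 2.45 and 3.09 in wild-type control cells and 2.98, 2.72 and 2.97 in inhibitor cells. Parp14 showed only the step between genotypes, 1.76 ± 0.20 (adjusted p = 0.000197).

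Of 9 membrane, secreted, nuclear body and other genes, 6 were higher. Rtp4, which encodes a receptor chaperone, had mouse 3 as the highest Dgcr8 KO animal in both treatments. Rtp4 had levels of -0.44, 0.96 and -0.44 on the Dgcr8 KO control arrays, -1.11, 0.50 and -1.70 with miR-29b, -3.79, -3.41 and -2.92 on the wild-type control arrays and -3.41, -3.36 and -3.36 with the inhibitors. All Dgcr8 KO arrays were still above the wild type, by 3.40 ± 0.54 (adjusted p = 0.0014), and by 2.56 with normexp. Ifi44 encodes a GTP-binding protein of uncertain role. The Ifi44 probe read -3.30, -4.63 and -3.54 in the Dgcr8 KO controls and -5.84, -3.76 and -5.33 with miR-29b, against -6.97, -8.02 and -8.12 in the wild-type controls and -8.38, -8.30 and -7.79 with the inhibitors. It was well above background on all 6 Dgcr8 KO arrays and on 0 of 6 wild-type arrays, so the size of its difference is not settled either. The processed signals of the controls differed by 3.88 (adjusted p = 0.000678) and the authors' values by 1.33. With normexp the difference was 0.75 and did not pass (adjusted p = 0.198).

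Bst2 encodes tetherin, which holds budding virus at the cell surface. For Bst2 the levels were 4.72, 4.55 and 4.37 (Dgcr8 KO control), 4.09, 4.64 and 3.70 (miR-29b), 3.45, 3.25 and 3.76 (wild-type control) and 3.76, 3.13 and 3.78 (inhibitors). The controls were apart and the miR-29b array of mouse 4 lay within the wild-type range. The control difference of 1.06 ± 0.27 (adjusted p = 0.0178) was lost without Dgcr8 KO control 2 or wild-type control 2 or 3 (adjusted p up to 0.0639). Lgals3bp encodes a secreted glycoprotein that binds galectins. Levels of Lgals3bp stood at 5.15, 5.36 and 4.91 in Dgcr8 KO control cells, 4.57, 5.27 and 4.52 in miR-29b cells, 3.35, 3.41 and 3.53 in wild-type control cells and 3.60, 3.19 and 3.93 in inhibitor cells. Its genotypes were fully separate, at 1.71 ± 0.25 (adjusted p = 0.000888). Xaf1 encodes a partner of the apoptosis inhibitor XIAP. Xaf1 had levels of 0.95, 0.98 and 1.23 on the Dgcr8 KO control arrays, 0.11, 0.74 and 0.43 with miR-29b, -0.46, -0.003 and -0.31 on the wild-type control arrays and -0.40, -0.03 and -0.35 with the inhibitors. Its Dgcr8 KO arrays were all above its wild-type arrays, and the controls differed by 1.31 ± 0.21 (adjusted p = 0.00141). Ifi35 encodes a leucine-zipper protein. The Ifi35 probe read 3.32, 2.92 and 2.66 in the Dgcr8 KO controls and 2.87, 2.65 and 2.22 with miR-29b, against 2.10, 2.23 and 2.002 in the wild-type controls and 2.08, 1.99 and 2.26 with the inhibitors. Controls did not overlap, and the difference was 0.85 ± 0.22 (adjusted p = 0.0177), lost without Dgcr8 KO control 2 or wild-type control 2 or 4 (adjusted p up to 0.0685). Ifi27l2a, Sp100 and Tor3a differed by 0.45, 0.03 and 0.08 and did not pass. Across the whole set the 10 members not given array by array differed by 0.03 to 0.87 between controls, and 4 of them did not overlap.

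**Figure D2:**
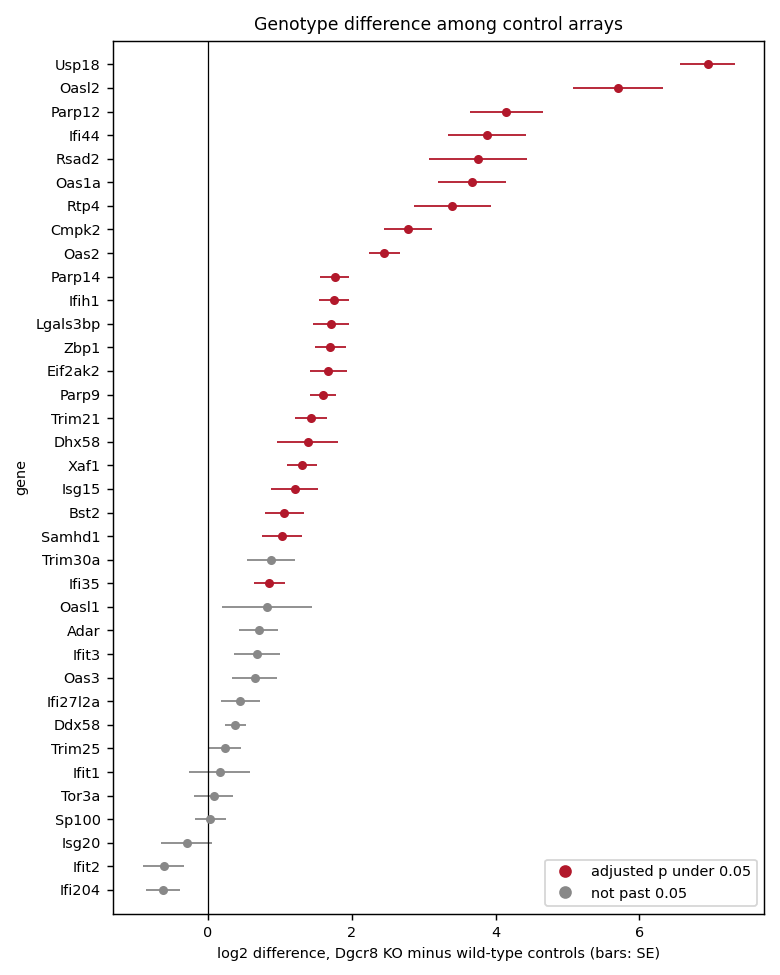
Log2 difference between Dgcr8 KO and wild-type control arrays for each of the 36 genes (points) with its standard error (bars), sorted by size, 3 arrays per group. Red points passed an adjusted p of 0.05: the 22 red genes lie to the right of 0, with Usp18 at 6.95 farthest, and Ifit2 and Ifi204, both grey, are lowest at -0.62.

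Only 2 slides held control arrays of both genotypes. Slide 2 held mouse 2 of each genotype and slide 4 held Dgcr8 KO mouse 4 with wild-type mouse 3. On these the median member difference between control arrays was 1.34 and 1.27. With slide or with scan day as a block, 27 members were higher and 2 were lower, Ifit2 and, on its brightest probe, Ifi204. More of all genes passed in these fits as well, 16.2% higher and 26.7% lower with slide, and 15.6% higher and 24.2% lower with scan day. Neither fit had a term for the mouse, so both arrays of a mouse counted as separate. In limma with the mouse as a block, 21 members were higher and 0 lower, where 1265 and 1728 of 14719 genes were. Oasl2 and Ifi44, which passed the filter on dim probes only through their Dgcr8 KO arrays, were among the higher members in each of these fits. Ifit2 and Ifi204 did not pass in that fit (adjusted p = 0.117 and 0.164).

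Markers of other cells differed between the genotypes too. Of 6 B cell markers 5 were higher in Dgcr8 KO controls, among them Ms4a1 by 5.86, Cd79b by 3.83, Blk by 2.18 and Cd79a by 1.44, and the summed signal of the list was 4.23 to 9.23 times the 75th percentile in Dgcr8 KO controls and 0.351 to 0.507 times in wild-type controls. Among plasmacytoid dendritic cell markers, Tcf4 (2.15) and Ccr9 (1.28) were higher, Klk1 differed by 0.18, and Siglech was not well above background on any array. Pacsin1 differed by -1.97 in the other direction (adjusted p = 0.061) and was lower in the fit blocked by mouse (adjusted p = 0.0298). The summed signal of that list was 0.746 to 1.21 in Dgcr8 KO controls and 0.517 to 1.88 in wild-type controls. Myeloid and dendritic markers gave 1 higher and 2 lower of 8 tested (summed signal 0.409 to 0.748 against 0.913 to 1.55, with Lyz2 not well above background on any control array). NK markers gave 0 of 5 in limma, and 0 reached an unadjusted p of 0.05 (0.0852 to 0.224 against 0.0592 to 0.128). The part of these cells in the genotype differences was not tested.

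Members with and without the response element letters described above overlapped in their differences. The 12 genes with a match differed by 0.16 to 3.76 between controls, median 1.13, and 7 of them were higher, against a median of 0.94 and 8 higher among 14 measured genes whose window held no match. Oas1a and Oas3, both with matches before the start, differed by 3.67 and 0.65. Oasl2 and Parp12 (4.15) had no match in the window, which says nothing on elements elsewhere.

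**Figure D3:**
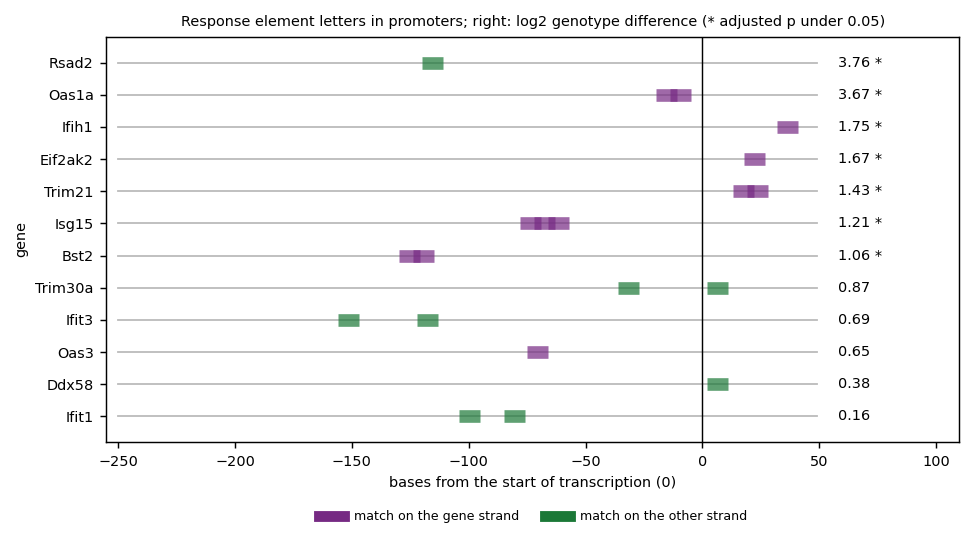
Position of the response element core (bars, purple on the gene strand and green on the other) in the promoters of 12 genes, in bases from the start of transcription at 0, with the grey line spanning the window of the table. The number on the right is the log2 difference between control groups and the star marks an adjusted p under 0.05: matches lie on both sides of the start, and genes from 3.76 (Rsad2) to 0.16 (Ifit1) hold them.

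Members that are direct neighbours did not always go together. Oas2 and Oas3 on chromosome 5 differed by 2.45 and 0.65 between controls. With normexp these were 0.67 and 0.62, and with the authors' values 1.28 and 0.63, so that contrast depended on the processing. Oasl2 and Oasl1, also neighbours on chromosome 5, differed by 5.71 and 0.82, or by 2.59 and -0.20 with normexp. The pair Rsad2 and Cmpk2 gave 3.76 and 2.79. The OAS, IFIT and HIN families hold close relatives, and whether a probe also read a relative was not tested.

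Upstream in the pathway, 30 genes were measured and 9 were higher and 3 lower in Dgcr8 KO controls, with a median of 0.10. The shares over all genes were 9.26% higher and 12.7% lower. The ligand probes Ifna2, Ifna5 and Ifna9 differed by 0.30, 0.14 and 0.05, with 0 of 3 past the threshold in limma and 0 under 0.05 before adjustment, and Ifnb1 and Ifna4 had no probe that passed the filter. The receptor subunit Ifnar1 was higher. For Ifnar1 the levels were 3.01, 2.84 and 3.09 (Dgcr8 KO control), 2.10, 2.15 and 2.33 (miR-29b), 1.89, 1.63 and 1.91 (wild-type control) and 1.87, 1.73 and 1.72 (inhibitors). Its Dgcr8 KO controls were above all other arrays, by 1.17 ± 0.15 (adjusted p = 0.000441) over wild-type controls, while Ifnar2 differed by -0.25 ± 0.18 (adjusted p = 0.393). Stat2 and Irf9, which encode parts of the factor that binds the response element, were higher by 1.79 ± 0.36 (adjusted p = 0.00531) and 1.80 ± 0.19 (adjusted p = 0.000133).

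Other transcription factors of the pathway were higher as well, Irf1 by 1.77, Irf7 by 1.31 and Irf8 by 1.78, as were the inhibitor Socs3 by 1.90 and the RNA sensor Tlr7 by 1.097. The Irf7 probe read 0.01, 0.40 and 0.08 in the Dgcr8 KO controls and -0.64, 0.52 and -0.92 with miR-29b, against -1.02, -1.58 and -0.84 in the wild-type controls and -0.72, -1.15 and -0.75 with the inhibitors. The Irf7 controls did not overlap. The miR-29b array of mouse 2 lay between them, that of mouse 3 was above all controls, and that of mouse 4 fell within the range of the wild-type controls. For Stat2 the levels were 2.31, 2.61 and 1.71 (Dgcr8 KO control), 2.27, 2.68 and 1.49 (miR-29b), 0.71, -0.14 and 0.68 (wild-type control) and 0.72, 0.13 and 0.57 (inhibitors). Levels of Irf9 stood at 2.80, 3.03 and 3.35 in Dgcr8 KO control cells, 2.84, 3.23 and 3.16 in miR-29b cells, 1.12, 1.32 and 1.34 in wild-type control cells and 1.40, 1.57 and 1.27 in inhibitor cells. Both separated the genotypes on every array. The 3 lower genes were Irf5 (-1.72), the adaptor gene Mavs (-0.61) and Mb21d1 (-0.65), which encodes the DNA sensor cGAS. The Tlr7 difference was 0.30 with normexp and did not pass there (adjusted p = 0.393). The Irf7 call was lost without Dgcr8 KO control 3 or wild-type control 3 (adjusted p up to 0.0778). The Mavs call was lost without Dgcr8 KO control 2 or 4 or any one wild-type control (adjusted p up to 0.13), and the Mb21d1 call without Dgcr8 KO control 2 or 3 or wild-type control 3 or 4 (adjusted p up to 0.098) and in the fit blocked by mouse (adjusted p = 0.126).

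Among 4 genes tested for interferon gamma and its receptor, with Jak2 counted, 2 were higher in Dgcr8 KO controls, 0 were lower and 2 did not pass. Of all genes, 9.26% were higher and 12.7% lower. Ifng had levels of 4.59, 3.97 and 2.54 on the Dgcr8 KO control arrays, 1.11, 1.39 and -0.21 with miR-29b, -2.27, -2.87 and -2.67 on the wild-type control arrays and -1.98, -2.54 and -1.86 with the inhibitors. Ifng, the cytokine gene, was highest in Dgcr8 KO controls and lowest in both wild-type groups, with 6.30 ± 0.53 (adjusted p = 3.6e-05) between controls, and its receptor subunit Ifngr2 differed by 1.48 ± 0.27 (adjusted p = 0.00305). All 13 interferon-induced GTPases measured were higher, by 1.71 to 5.45 with a median of 2.88, Iigp1 and Gbp2 among them at 5.45 and 4.52. They share controls with the antiviral set, and no test of a link between the lists was made.

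With miR-29b in Dgcr8 KO cells, most members read below their controls without passing the test. Of 36 members 1 was lower, Parp9, 0 were higher and 35 did not pass, where 1.19% of all genes were lower and 1.01% higher. The sign was negative for 27, and 8 had an unadjusted p under 0.05 (14.4% of all genes). The median was -0.36, against 0.10 over all genes. By mouse it was -0.59, -0.02 and -0.44, with 30, 19 and 29 of the 36 lower, with mouse 3 nearest to 0. The lower sign was found in all 3 mice for 19 members and the higher sign for 6, where 21.6% and 38.5% of all genes did so.

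The cells of each mouse were divided between the treatments, and arrays of one mouse deviated together, so the fit with the mouse as a block also bears on this comparison. There 12 members were lower and 2 higher, where 9.42% of all genes were lower and 13.1% higher. The 12 lower genes were Ifit2 and Ifit3, Oas1a and Oasl2, Ifih1, Trim21, Trim30a and Ifi204, Parp9 and Parp12, and Xaf1 and Rtp4. Of these 8 were higher in Dgcr8 KO than in wild-type controls, as were 22 of all 36 members. Both comparisons share the Dgcr8 KO control arrays, so these calls are not independent. The higher genes were Isg20 and Oas3.

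Parp9, whose levels are given above, differed by -0.92, -0.42 and -1.05 in the 3 mice. Its mean difference was -0.80 ± 0.18 (adjusted p = 0.0476) without a block and adjusted p = 0.0165 with it, and the groups did not overlap. That call was kept in 9 of 18 alternative settings (adjusted p up to 0.328), and was lost without any one of Dgcr8 KO controls 2, 3 or 4 or miR-29b arrays 2 or 4. Parp12 differed by -1.16, -0.44 and -1.29 by mouse, and its groups did not overlap (-0.97 ± 0.51, adjusted p = 0.442, with the block adjusted p = 0.015). Parp14 differed by -0.22 ± 0.20 (adjusted p = 0.738), with all 3 mice lower.

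Oas1a differed by -1.69 ± 0.47 (adjusted p = 0.106), and by -0.92 with normexp. It was lower in every mouse, by -1.99, -1.11 and -1.97, and its block fit gave adjusted p = 0.00442. The ranges of the 2 groups overlapped, since the control of mouse 4 was as low as the miR-29b array of mouse 3. Oasl2 differed by -1.58, -0.81 and -1.47 by mouse (-1.29 ± 0.63, with the block adjusted p = 0.0168), while Oas3 was higher in all 3 mice, by 0.23, 1.05 and 0.48 (with the block adjusted p = 0.0495), and Oas2 by 0.57, 0.39 and 0.02 without a call. Members of one enzyme family thus had opposite signs.

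Ifit2 differed by a similar amount in each mouse, -0.88, -1.09 and -1.05 by mouse. It differed by -1.01 ± 0.29 (adjusted p = 0.118, with the block adjusted p = 0.00337), its groups did not overlap, and its second probe gave -0.88. Ifit3 gave -0.9995, -0.51 and -0.92 (with the block adjusted p = 0.0103), and Ifit1 gave -1.35, 0.73 and -0.42, higher in mouse 3 alone.

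Ifih1 differed by -1.03, -0.32 and -0.79 and its groups did not overlap (-0.71 ± 0.21, adjusted p = 0.12, with the block adjusted p = 0.0211). Ifi204 and Xaf1 also had groups that did not overlap, with differences by mouse of -0.97, -0.37 and -0.87 and -0.83, -0.24 and -0.80 and block fits of adjusted p = 0.0221 and adjusted p = 0.0238. In all, 6 members had miR-29b arrays wholly below control arrays and 0 wholly above, where 6.51% and 9.46% of genes did so. Trim30a, Trim21 and Rtp4 passed with the block at 0.0127, 0.0204 and 0.0397 (adjusted p), with differences of -0.73, -0.38 and -0.80.

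Isg20 was the member with the largest difference in the other direction, 0.99, 0.65 and 0.85 by mouse. Its mean was 0.83 ± 0.36 (adjusted p = 0.32, with the block adjusted p = 0.0114), although the ranges overlapped because the mice differed.

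Several members with large genotype differences were split by mouse under miR-29b. Rsad2 differed by -2.82, 0.36 and -1.64, Ifi44 by -2.54, 0.87 and -1.79 and Isg15 by -0.53, 0.23 and -0.78, lower in mice 2 and 4 and higher in mouse 3. None passed with the block (adjusted p = 0.131, 0.252 and 0.277). Usp18, the gene with the largest genotype difference, differed by -0.22, 0.37 and -0.06 and had a mean of 0.03 ± 0.38. Without the miR-29b array of mouse 3, the members' median was -0.55 and 3 members were lower, Parp9, Oas1a and Rsad2. Without the miR-29b array of mouse 4 the median was -0.21. The outlier spots of the mouse 3 array and its Y-linked transcripts were described above, and their part in the split was not tested.

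**Figure D4:**
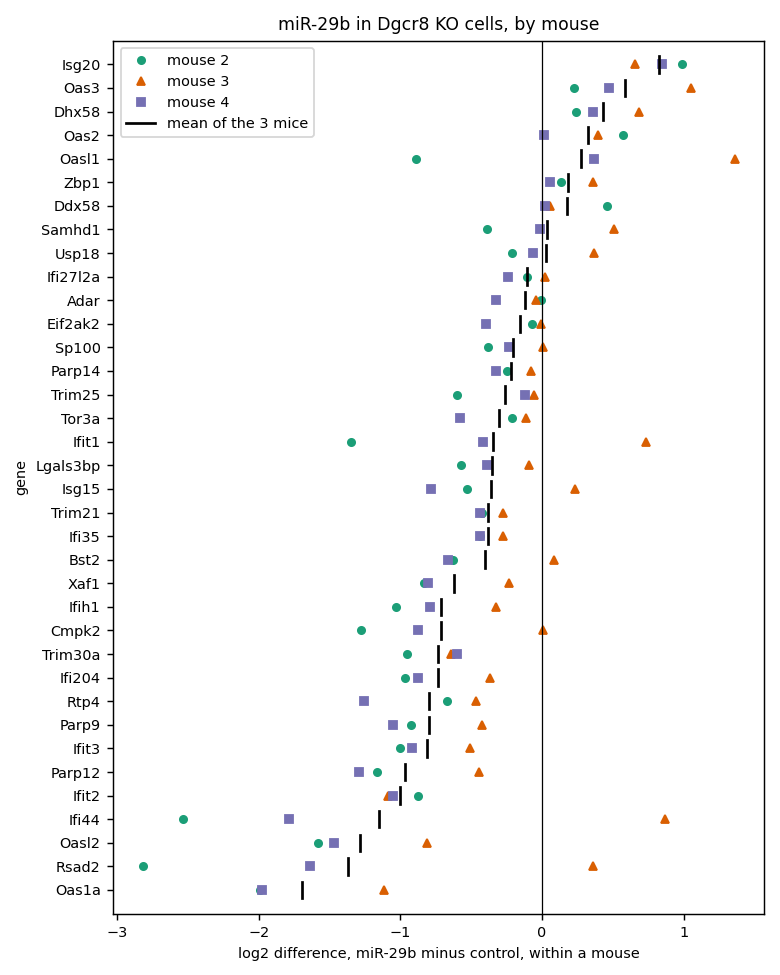
Log2 difference between miR-29b and control arrays of the same Dgcr8 KO mouse for each of the 36 genes (circle, triangle and square for mice 2, 3 and 4), with the mean as a black tick, sorted by mean. Points of mouse 3 lie to the right of the others in many genes, and Rsad2 runs from -2.82 in mouse 2 to 0.36 in mouse 3.

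In the pathway list, 1 of 30 genes was lower with miR-29b, the receptor subunit Ifnar1, by -0.79 ± 0.15 (adjusted p = 0.0279). It was lower in each mouse, by -0.91, -0.69 and -0.76, with groups that did not overlap, and the call was kept in 9 of 18 alternative settings and lost without any single one of the 6 arrays (adjusted p up to 0.301). Ifnar2 differed by 0.51, 0.44 and 0.19 in the other direction and did not pass (adjusted p = 0.36). Stat2 differed by -0.04, 0.07 and -0.22 and Irf9 by 0.04, 0.19 and -0.19, neither past the threshold with or without the block. With the block 2 pathway genes were lower, Ifnar1 and Irf8, and 4 were higher, where 9.42% of all genes were lower and 13.1% higher.

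Ifng differed by -3.48, -2.59 and -2.75 by mouse and was lower with miR-29b (-2.94 ± 0.53, adjusted p = 0.0212), the call holding in 12 of 18 settings and lost without Dgcr8 KO control 2 or 3 or miR-29b array 2 or 4 (adjusted p up to 0.242). Of the 13 GTPases 1 was lower, Gbp7, by -0.83 ± 0.17 (adjusted p = 0.0392), and 5 were with the block. Of all genes, 1.19% were lower without the block and 9.42% with it. Gbp7 kept its call in 9 of 18 settings and lost it without any single one of the 6 arrays (adjusted p up to 0.287), and Iigp1 differed by -0.96 ± 0.22 (adjusted p = 0.0559).

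**Figure D5:**
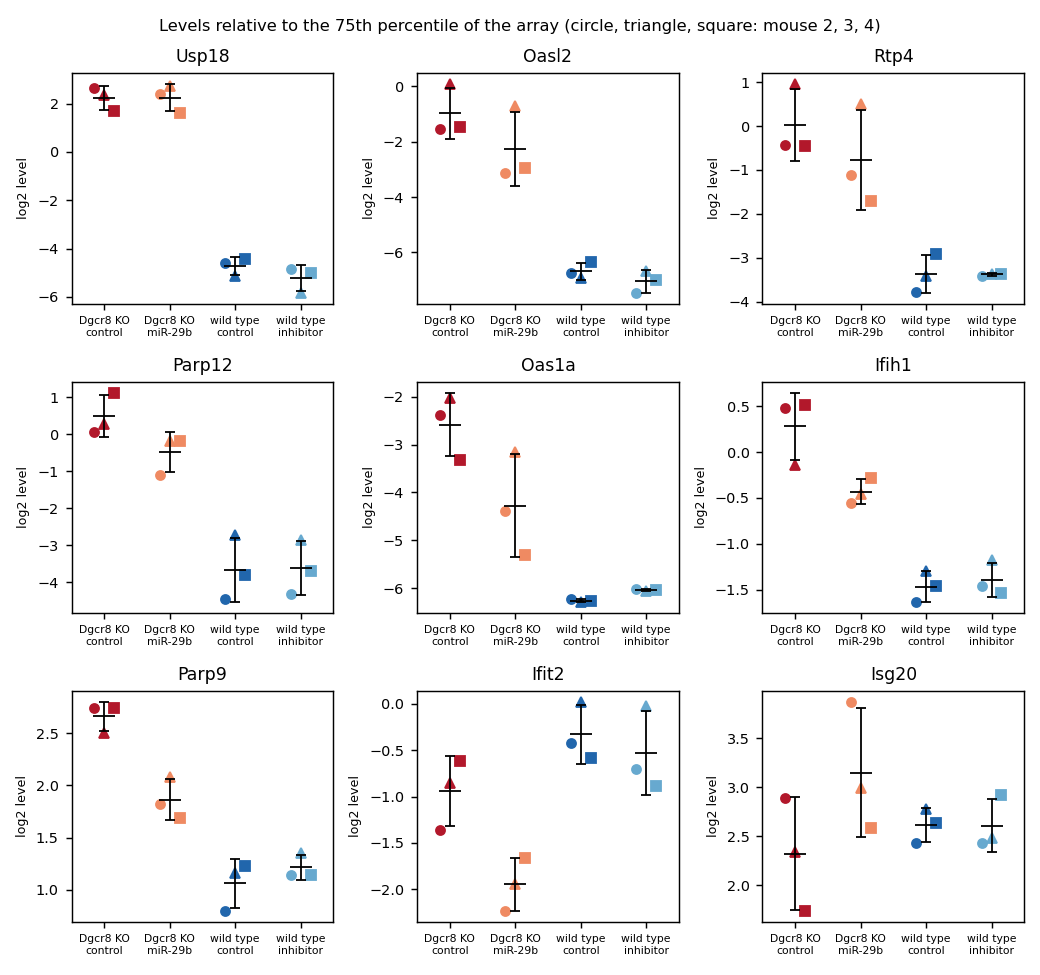
Log2 level relative to the array's 75th percentile for 9 genes in the 4 groups (circle, triangle and square for mice 2, 3 and 4; black bars are the mean and SD of 3 arrays, and each panel has its own scale). Usp18, Oasl2, Rtp4, Parp12, Oas1a, Ifih1 and Parp9 are higher on all Dgcr8 KO arrays than on wild-type arrays, whereas Ifit2 is lowest with miR-29b and Isg20 overlaps in all groups.

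In wild-type cells, blocking miR-29 gave no call in the set. Of 36 members 0 passed in limma, 0 had an unadjusted p under 0.05, and 0 passed when blocked by mouse, where 1 reached that unadjusted level. Of all genes 0% passed in either fit, and 0.414% reached the unadjusted level without a block and 3.48% with it. The median difference was 0.05, and 0.15, 0.09 and -0.07 by mouse. Differences ran from -0.82 ± 0.62 for Oasl1 (-0.15 with the authors' values and -0.22 without inhibitor array 2) to 0.60 ± 0.68 for Rsad2 (-0.08 with normexp), and these errors leave room for differences of the size seen with miR-29b. Oas1a alone had inhibitor arrays wholly above control arrays, by 0.22, 0.23 and 0.22, where 1.69% of genes did so. Its mean difference of 0.22 was 0.07 with the authors' values and turned to -0.18 with normexp. Usp18 differed by -0.25, -0.69 and -0.57, lower in all 3 mice, with a mean of -0.51 ± 0.38. Ifnar1 differed by -0.04 ± 0.15 and Parp9 by 0.15 ± 0.18.

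The difference between the miR-29b effect and the inhibitor effect was tested directly. In limma 0 of 36 members passed and 3 had an unadjusted p under 0.05, Parp9, Oas1a and Ifih1, where 0.156% of all genes passed and 7.12% reached the unadjusted level. The median over members was -0.39. With the mouse as a block 2 members were lower, Oas1a at -1.92 (adjusted p = 0.02) and Ifit2 at -0.80 (adjusted p = 0.0285), where 3.53% of all genes were lower. Parp9 gave -0.95 ± 0.25 (adjusted p = 0.222, with the block adjusted p = 0.0558).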

How the data were processed

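The 12 arrays were read from the deposited Feature Extraction files. Per the file headers, Agilent Feature Extraction 10.5.1.1 gave each spot an intensity in arbitrary units and subtracted its background, with no scaling between arrays. A table of the authors' own log2 values was deposited as well and served as an alternative; the submitters' processing notes name limma, without a version. The genome build and further steps are not given in the sources used here.

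The log2 processed signal minus the 75th percentile of its array was the level. Control spots (1639 of 45018) and spots marked as outliers were left out, spots of a probe were averaged, and probes well above background on at least 3 of 12 arrays were kept (32215 of 41174). RefSeq accessions without versions gave gene symbols to 21098 kept probes, and the brightest stood for each of 14719 genes. All 12 arrays entered one fit of 4 groups in limma 3.58.1 (R 4.3.3, data.table version 1.17.8), on the log2 scale, with Benjamini-Hochberg adjustment over all genes and a threshold of 0.05. Its p-values rest on the spread between the mice of a group. That fit had no term for the mouse, so both arrays of a mouse counted as separate and their pairing was not used. Tested were the effect of miR-29b in Dgcr8 KO cells, the effect of inhibitors in wild-type cells, the genotypes among controls, and the difference between both effects. The fit was checked on simulated data with independent noise on each array. That check left out the correlation between arrays of a mouse, so it does not cover its effect on the calls.

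Per the labels, cells of each mouse received both treatments of its genotype. Residuals of the arrays of one mouse correlated at 0.646, 0.610 and 0.746 in Dgcr8 KO and at 0.446, 0.726 and 0.418 in the wild type. Controls of equal number across genotypes correlated at 0.272, -0.283 and -0.354, and only those numbered 2 shared a slide. Since the arrays of a mouse also shared a slide, these values cannot tell the mouse from the slide. The pairing within a genotype rests on the labels. The mouse entered as a fixed block within genotypes and by duplicateCorrelation between them. Other fits had the slide (4) or scan day (2) as the block, and the arrays of any one mouse lay on one slide.

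The members, role groups, lists and tests were chosen with earlier results of these data known. Levels on every array are given for members past the threshold in any comparison and for those with the smallest p-values of each role group in the miR-29b or genotype comparison, 26 in all. Pathway genes were named when they passed, with Ifng, Stat2, Irf7, Irf9, Ifnar1 and Ifnar2 always. A few named genes are not reported here. Marker lists held 10 helper T, 2 CD8 T, 6 B, 5 NK, 9 myeloid and dendritic and 5 plasmacytoid dendritic cell genes. The 1 CD8 marker measured differed by 0.26 between genotypes without passing. Alternatives were normexp (offset 50), quantile normalization, the authors' values, other filters and probe rules, the blocks, and single arrays left out. The normexp setting used the median spot signal where the plan had named the mean.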

Additional observations from a re-analysis of the deposited data

How the results depend on the processing

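Of 36 members, the number past the threshold with miR-29b was 1. It was 0 with normexp, with no filter on dim probes, on the 6 arrays compared alone and without both arrays of Dgcr8 KO mouse 3, 2 (both lower) with quantile normalization, and 3 (all lower) with the authors' values. The replicate block, by mouse, made it 14 (2 higher, 12 lower), with slide as a block 12 (1 and 11) and with scan day as a block 9 (1 and 8). Over all genes 324 passed (149 higher, 175 lower), and 571 with the authors' values (218 and 353), 3316 when blocked by mouse, 2695 with slide, 1928 with scan day, 0 on the compared arrays alone and 117 without mouse 3. The split was 80 and 151 with normexp and 150 and 269 with quantile normalization. The median of all genes was 0.10, 0.14 with normexp, -0.0014 with quantile normalization and 0.02 with the authors' values. Without a single array, 0 members passed when Dgcr8 KO control 2, 3 or 4 or miR-29b array 2 or 4 was left out, and 3 without miR-29b array 3. Over all genes these fits gave 90, 132, 174, 121, 122 and 272. The members' median ranged from -0.55 to -0.21.

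Between genotypes, 17 to 29 members passed in the settings tried, 22 as reported. The median of 1.26 was 0.99 with normexp, 1.13 for genes well above background on all arrays, 1.14 with slide as a block, and 1.13 to 1.29 with one array left out. Over all genes 6318 passed with slide and 5849 with scan day as a block, against 3232. The median of all genes moved from -0.08 to -0.25 with normexp. For the 22 genes past the threshold, the call was kept in 368 of 393 gene-by-setting values and no sign turned. For inhibitors 0 members passed in every setting that could be run. The difference between effects had 2 members lower with the mouse or slide as a block and 0 otherwise. The cause of these changes was not tested.

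The number of arrays, 3 per group, limits the precision. Of the 36 members, 4 had arrays not well above background. The size of differences depended on the background correction for these and for members well above background on all arrays, such as Usp18, Oas1a, Rsad2 and Parp12.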
